A study of Homo sapiens with 54 samples.

Results

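The 10 genes described here encode enzymes that turn 5-fluorouracil (5-FU) into active nucleotides, that break it down, or that draw on a substrate of its activation. CDA is the exception, as it acts on cytidine and its analogues and not on 5-FU. The 10 genes are UMPS, UPP1, TYMP, TK1, UCK1, UCK2, UCKL1, DPYD, CDA and PPAT. They were chosen by symbol and make up 10 of the 59368 genes in the deposited gene tables. RNA was sequenced from HT-29, HCT-116 and DLD-1 cells, 3 established human lines of colorectal cancer origin, each as a 5-FU-sensitive population and as a population selected for resistance. Each cell population received 10 µM uracil, 10 µM 5-FU, or 10 µM 5-FU followed by X-rays, which gave 18 conditions with 3 libraries each and 54 libraries in all. Uracil, the natural base that 5-FU resembles, served as the control for the drug.

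Drug or uracil was present for 24 h. For the irradiated groups the medium was then changed and the cells received a line-specific X-ray dose, given in the labels as the DL50. Irradiation was therefore only ever studied on top of 5-FU. No group is described that had the medium change without X-rays, so X-rays, medium change and any added time cannot be told apart. The resistant populations were obtained by passaging each line in rising 5-FU concentrations over months and were kept in medium with 5-FU. Resistant cells given uracil had therefore been cultured with the drug beforehand, and each resistant line is 1 such selected population. Where 3 values follow each other without a line name, they stand for DLD-1, then HCT-116, then HT-29. The labels number the libraries of a condition but do not say how the cultures were separated, so p-values here measure the spread between these libraries.

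5-FU is inactive until a cell converts it to nucleotides. UMPS, through its orotate phosphoribosyltransferase activity, can add ribose phosphate from PRPP in a single step. PPAT, the amidophosphoribosyltransferase that opens purine synthesis, also consumes PRPP. The alternative route adds a sugar first: uridine phosphorylase (UPP1) makes fluorouridine, thymidine phosphorylase (TYMP) makes fluorodeoxyuridine, and kinases then add phosphate. Thymidine kinase 1 (TK1) acts on the deoxyriboside, and the uridine-cytidine kinases UCK1 and UCK2, with the related UCKL1, on the riboside. DPYD, dihydropyrimidine dehydrogenase, starts the breakdown of 5-FU and in patients sets much of its clearance, mainly in the liver. Cytidine deaminase (CDA) does not act on 5-FU itself, but it deaminates cytidine and its analogues and converts an intermediate of the oral prodrug capecitabine.

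Total estimated counts lay between 38956787 and 218518001 per library (median 51373192). The deepest library was replicate 2 of sensitive DLD-1 cells under uracil, and the next deepest held 86673214. Before any result, the labels were checked against genes that mark 1 sensitive line, defined as a mean of at least 10 TPM in that line and at most 0.1 TPM in both others under uracil. The libraries labelled resistant HT-29 carried 96.9% of the 64 HCT-116 markers at 1 TPM or more, 0% of the 12 HT-29 markers and 0% of the 17 DLD-1 markers, under all 3 treatments. Resistant HCT-116 libraries carried 96.9% to 98.4% of the HCT-116 markers, and resistant DLD-1 libraries 94.1% of the DLD-1 markers. The libraries labelled resistant HT-29 thus went against their label, and counts that use them are also given without them. All 5 epithelial markers reached 1 TPM in every condition, while intestinal markers reached it for 4 of 4 genes in sensitive DLD-1, 2 of 4 in sensitive HT-29 and 1 of 4 in sensitive HCT-116 cells.

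Under uracil the 3 sensitive lines differed most in DPYD, TYMP and CDA, which had the lowest levels of the group in DLD-1 and HT-29. In HCT-116 TYMP was not among the lowest, at 21.1 TPM beside 20.7 TPM for UCK1. Levels are given here as TPM (abundance relative to all transcripts of the library, corrected for transcript length), the scale on which genes can be compared with each other. TK1 was the most abundant of the 10 transcripts in each sensitive line, at 236 ± 6.47, 323 ± 10.2 and 247 ± 11.6 TPM (mean ± SD, n = 3). These values lay above 96.2%, 97.4% and 96.1% of all genes that reached 1 TPM in the same condition. UMPS, UCK2 and PPAT followed, with condition means between 43.4 and 82.1 TPM over all 18 conditions. DPYD was the lowest of the 10 in every sensitive line. In bulk RNA of this kind, fewer cells with a transcript and less transcript per cell cannot be told apart.

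The plot of levels for the phosphoribosyl and phosphorylase routes and TK1 shows how far apart the conditions lay for each gene. The largest mean over the smallest mean of the 18 conditions was 22.9 for TYMP, 13.8 for CDA, 7.81 for TK1, 3.49 for UPP1 and 2.56 for UCK1. It was 1.86 for UCKL1, 1.62 for UMPS, 1.57 for UCK2 and 1.45 for PPAT. On gene totals UMPS and PPAT, the PRPP-dependent pair, were among the steadiest of the group, although the protein-coding TPM of UMPS ran from 3.78 to 10.6, a 2.8-fold range. TYMP and CDA were the most variable of the 9 genes other than DPYD, whose lowest level lay at the detection limit.

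**Figure D1:**
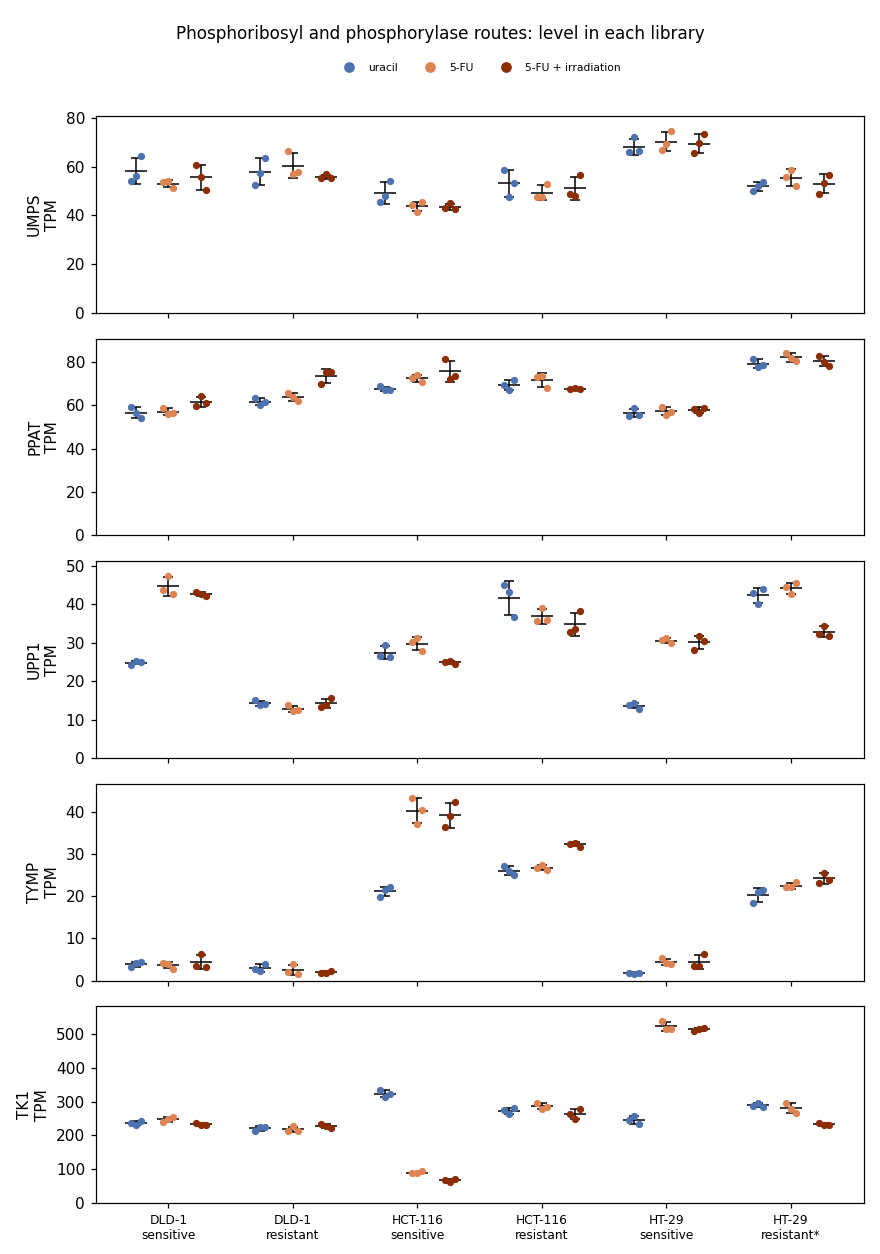
Level in each library (TPM, linear axes from 0) of UMPS, PPAT, UPP1, TYMP and TK1, by cell line, sensitivity and treatment. Points are the 3 libraries of a condition, bars the mean ± SD, and the asterisk marks libraries labelled resistant HT-29. TK1 in sensitive cells under 5-FU sits near 90 TPM in HCT-116 and above 500 TPM in HT-29.

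Differences between libraries were tested with edgeR's quasi-likelihood test on the counts, with Benjamini-Hochberg adjustment over all genes tested. A difference passed at an adjusted p of at most 0.01, and it was called when it was also at least 2-fold. Fold changes are on the log2 scale of these counts, given ± SE. Between sensitive lines under uracil, 26 of 30 member differences passed and 7 were called. Among all genes 59.8% passed and 30.7% were called between HCT-116 and DLD-1, 58.8% and 30.9% between HT-29 and DLD-1, and 63.7% and 37.5% between HT-29 and HCT-116. The called genes were TYMP, CDA, DPYD and UPP1. The 2 DPYD calls, both against DLD-1, concern a gene that passed the count filter through the other lines.

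TYMP set HCT-116 apart. Its level under uracil was 19.9, 21.4 and 22.1 TPM in sensitive HCT-116, against 3.19, 4.11 and 4.27 TPM in DLD-1 and 1.84, 1.58 and 1.85 TPM in HT-29. None of these library values overlapped between HCT-116 and the other lines. The log2 difference was 3.61 ± 0.08 for HCT-116 minus DLD-1 (adjusted p = 6e-38) and -3.57 ± 0.09 for HT-29 minus HCT-116 (adjusted p = 2.8e-36). DLD-1 and HT-29 were apart on TPM but differed by 0.04 ± 0.11 on the counts (adjusted p = 0.75), so for TYMP the length correction changes the comparison. The TYMP gene (chr22:50525752-50530032, minus strand) overlaps SCO2 by 710 bases and ODF3B by 323 bases on the same strand, so reads from the shared bases were divided by estimate.

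CDA was highest in HCT-116 as well, at 19.0, 17.7 and 18.9 TPM under uracil. HT-29 held 8.19, 9.08 and 8.12 TPM, and DLD-1 held 3.23, 4.10 and 5.17 TPM. No library of 1 line reached the range of another, and the log2 difference was 2.12 ± 0.13 for HCT-116 minus DLD-1 and 1.15 ± 0.14 for HT-29 minus DLD-1 (adjusted p = 5.5e-20 and 4.2e-10). The difference between HT-29 and HCT-116, -0.97 ± 0.13, passed but lay just under 2-fold.

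UPP1 was lowest in HT-29, at 13.8, 14.2 and 12.8 TPM, against 26.5, 29.5 and 26.3 TPM in HCT-116 and 24.3, 25.2 and 25.1 TPM in DLD-1. The log2 difference between HT-29 and HCT-116 was -1.02 ± 0.07 (adjusted p = 1.7e-18), and without replicate 2 of every group it was -0.97 and no longer 2-fold. HCT-116 and DLD-1 also did not overlap for UPP1, with a log2 difference of 0.38 ± 0.06 (adjusted p = 9.9e-07). These are gene totals. The protein-coding TPM of UPP1 had the opposite order, at 6.26 ± 0.439 in HCT-116 and 7.19 ± 0.547 in DLD-1 (mean ± SD, not tested). HT-29 stayed lowest, at 3.95 ± 0.108.

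DPYD, the first enzyme of 5-FU breakdown, was near the limit of detection in DLD-1. Sensitive DLD-1 cells gave 4, 11 and 2 counts under uracil, 8, 2 and 2 under 5-FU, and 10, 0 and 8 after irradiation. All 9 resistant DLD-1 libraries held 0 to 3 counts, at or under the limit of 3 counts that a count of 0 allows, so a lower level there was not detectable at this depth. DPYD therefore fell below the filter on low counts in the DLD-1 comparisons, which tested 9 of the 10 genes. HCT-116 and HT-29 cells under uracil held 103 to 138 and 77 to 150 counts, or 1.10 ± 0.105 and 1.5 ± 0.0611 TPM. Relative to DLD-1 the log2 difference was 5.42 ± 0.29 for HCT-116 and 5.37 ± 0.29 for HT-29, and its size rests on the few counts of DLD-1. In that joint fit DPYD passed the filter on low counts through the lines where it is high. Its test against DLD-1 is therefore no separate support for the difference.

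The remaining baseline differences were smaller. UCKL1 was lowest in DLD-1, below HCT-116 and HT-29 by 0.67 ± 0.04 and 0.90 ± 0.04 on the log2 scale. UCK2 was highest in HT-29, by 0.62 ± 0.05 over DLD-1 and 0.45 ± 0.05 over HCT-116. On gene totals UMPS was also highest in HT-29, by 0.37 ± 0.05 and 0.67 ± 0.05, respectively. Its protein-coding TPM did not keep that order, at 4.5 ± 0.861, 4.39 ± 3.03 and 4.31 ± 0.223 (mean ± SD). TK1 differed between each pair of lines by at most 0.43 ± 0.05. UCK1 was highest in DLD-1, with differences of -0.24 ± 0.05 for HCT-116 and -0.20 ± 0.05 for HT-29, and PPAT was higher in HCT-116 than in DLD-1 by 0.26 ± 0.05.

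In sensitive cells, 24 h of 5-FU changed 9 of the 10 genes in at least 1 line. CDA rose in all 3 lines, and UCK2 fell in all 3, although CDA in DLD-1 missed the threshold without replicate 1 or 2 and UCK2 in HCT-116 without replicate 1. TK1, UCK1, UCKL1 and DPYD moved in opposite directions in different lines, and UMPS did not pass in any. Of the 29 member differences, 21 passed, 11 of them higher and 10 lower (12 higher and 7 lower on library size alone). By line, 5 of 9, 7 of 10 and 9 of 10 members passed, where 34.7%, 42% and 47% of all tested genes did. Only 2 differences were called, TK1 in HCT-116 and CDA in HT-29, against 4.02%, 8.14% and 12.2% of all genes. The median log2 change of the members was -0.05, -0.09 and 0.67, beside 0.01, 0.03 and 0.03 for all genes tested.

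CDA had the largest increase. In sensitive HT-29 cells its level went from 8.19, 9.08 and 8.12 TPM under uracil to 53.3, 50.6 and 50.2 TPM under 5-FU. The groups were far apart, and the log2 change was 2.37 ± 0.10, a 5.17-fold increase (adjusted p = 1.1e-16). In HCT-116 the 5-FU libraries held 30.2, 30.2 and 32.6 TPM, all above the uracil libraries, with a change of 0.73 ± 0.10 (adjusted p = 1.4e-06). DLD-1 had the lowest level, with 7.12, 6.74 and 7.13 TPM under 5-FU, and again no overlap (0.64 ± 0.16, adjusted p = 0.0024). The rise in HT-29 exceeded that in DLD-1 by 1.79 ± 0.19 and that in HCT-116 by 1.70 ± 0.17 (adjusted p = 2.6e-11 and 1.7e-12), while HCT-116 and DLD-1 differed by 0.09 ± 0.18 (adjusted p = 0.78). Over all pairs of sensitive lines, which share the library groups, 20 of 30 differences in the members' 5-FU response passed and 6 were called, where 25.3%, 27.2% and 34.9% of all genes passed and 5.31%, 6.87% and 12.1% were called for HCT-116 minus DLD-1, HT-29 minus DLD-1 and HT-29 minus HCT-116.

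The CDA gene lies at chr1:20589086-20618903 on the plus strand (GRCh38). Its promoter is shown because CDA had the largest response to the drug. These are the 250 bases before the RefSeq start (GRCh38.p14, chr1:20588847-20589096), in lower case throughout because none of the 8 motifs searched was found in them.
CDA: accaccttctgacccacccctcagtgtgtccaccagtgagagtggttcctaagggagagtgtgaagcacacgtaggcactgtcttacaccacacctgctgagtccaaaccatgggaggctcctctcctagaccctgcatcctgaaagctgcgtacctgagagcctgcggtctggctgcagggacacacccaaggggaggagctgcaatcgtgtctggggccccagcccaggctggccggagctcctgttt

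TK1 moved in opposite directions in HCT-116 and HT-29. In sensitive HCT-116 it went from 333, 313 and 323 TPM under uracil to 88.4, 88.3 and 93.3 TPM under 5-FU, a log2 change of -1.87 ± 0.05 or a 3.65-fold decrease (adjusted p = 1.3e-17). In sensitive HT-29 it went from 247, 258 and 235 TPM to 538, 514 and 516 TPM (0.83 ± 0.05, adjusted p = 3.2e-14). Neither pair of groups overlapped. In DLD-1 the values were 235, 230 and 243 TPM under uracil and 240, 247 and 255 TPM under 5-FU, which overlapped, with a change of -0.05 ± 0.04 (adjusted p = 0.39). The response differed between HT-29 and HCT-116 by 2.76 ± 0.07, between HCT-116 and DLD-1 by -1.81 ± 0.07, and between HT-29 and DLD-1 by 0.95 ± 0.07 (adjusted p = 3.1e-33, 4.8e-26 and 2e-15).

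TK1 is expressed mainly in dividing cells around S phase, so cell-cycle genes were counted beside it. In HCT-116 under 5-FU, 11 of 11 S-phase genes passed lower, with a median log2 change of -1.23, and 8 of 8 G2/M genes passed lower, with a median of -1.93. In HT-29, 4 of 11 S-phase genes passed higher and 4 lower (median -0.05), and 2 of 8 G2/M genes passed higher and 5 lower (median -0.65). In DLD-1, 6 of 11 S-phase genes passed lower (median -0.16) and 2 of 8 G2/M genes passed higher (median 0.13). The part of cell-cycle state in the TK1 values was not tested.

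The TK1 gene lies at chr17:78174091-78187233 on the minus strand, 124 bases from AFMID, which runs the opposite way. The 100 bases before the second RefSeq start (GRCh38.p14, chr17:78187053-78187152, minus strand), which lies inside the annotated gene, are shown because the TK1 response differed most between lines. Capitals mark, from left to right, an NRF2-type site (TGACNNNGC) 100 bases before the start, CCAAT boxes at 77 and 46 bases, and an E2F-type site (TTCCCGC) at 12 bases, all found on the opposite strand.
TK1: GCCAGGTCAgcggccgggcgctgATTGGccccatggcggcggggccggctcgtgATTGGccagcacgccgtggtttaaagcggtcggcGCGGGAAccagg

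The 2 phosphorylases rose in different pairs of lines. UPP1 rose in DLD-1, from 24.3, 25.2 and 25.1 TPM to 43.8, 47.4 and 42.8 TPM (0.70 ± 0.05, adjusted p = 7.6e-10), and in HT-29, from 13.8, 14.2 and 12.8 TPM to 30.6, 31.1 and 29.9 TPM (0.89 ± 0.05, adjusted p = 1.5e-13). Uracil and 5-FU libraries did not overlap in either line. In HCT-116 they did, at 26.5, 29.5 and 26.3 against 30.2, 31.2 and 27.9 TPM (0.13 ± 0.08, adjusted p = 0.17). The response differed by -0.56 ± 0.09 for HCT-116 minus DLD-1 and by 0.82 ± 0.09 for HT-29 minus HCT-116 (adjusted p = 1.1e-06 and 1.8e-10).

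TYMP rose in HCT-116, from 19.9, 21.4 and 22.1 TPM to 43.2, 37.1 and 40.5 TPM (0.85 ± 0.05, adjusted p = 1.3e-12), and in HT-29, from 1.84, 1.58 and 1.85 TPM to 5.26, 4.08 and 3.92 TPM (0.84 ± 0.11, adjusted p = 1.7e-07). In DLD-1 the groups overlapped and the change was 0.05 ± 0.15 (adjusted p = 0.8). The rise exceeded the DLD-1 change by 0.82 ± 0.12 for HCT-116 and by 0.87 ± 0.15 for HT-29 (adjusted p = 2.6e-07 and 3.5e-06), and these lines differed by 0.05 ± 0.12 (adjusted p = 0.81). The UPP1 to TYMP ratio of TPM went from 1.30 ± 0.0969 to 0.742 ± 0.0842 for HCT-116, whereas for DLD-1 it went from 6.53 ± 0.945 to 12.6 ± 2.38. In HT-29 it was 7.81 ± 1.07 under uracil and 7.03 ± 1.04 under 5-FU, with overlapping ranges.

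UPP1 lies at chr7:48088628-48108736 on the plus strand. The 197 bases that begin 250 bases before the last of its listed RefSeq starts and end at an annotated exon (GRCh38.p14, chr7:48089015-48089211) are shown because UPP1 rose with the drug in 2 lines and was lower in resistant DLD-1 cells. Capitals mark overlapping Sp1-type sites (GGGCGG) at 154 and 150 bases before the start.
UPP1: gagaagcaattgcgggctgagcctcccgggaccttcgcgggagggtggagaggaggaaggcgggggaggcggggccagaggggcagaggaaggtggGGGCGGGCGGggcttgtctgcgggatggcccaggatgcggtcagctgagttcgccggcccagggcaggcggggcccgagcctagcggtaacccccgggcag

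Among the uridine-cytidine kinases, UCK2 fell in each sensitive line. The largest fall was in HT-29, from 67.3, 67.2 and 66.1 TPM to 44, 42.8 and 43.3 TPM (-0.86 ± 0.05, adjusted p = 1.2e-14). DLD-1 went from 59.7, 63.3 and 59.8 TPM to 48.5, 45.1 and 51.3 TPM (-0.52 ± 0.05), and HCT-116 from 63.9, 59.2 and 61.2 TPM to 48.3, 46.4 and 50.1 TPM (-0.23 ± 0.04). No 5-FU library reached the uracil range in any of the lines.

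UCK1 followed the directions of TK1. It fell in HCT-116, from 19.6, 22.5 and 19.9 TPM to 15.5, 14 and 12.7 TPM (-0.67 ± 0.05, adjusted p = 5.7e-10), and rose in HT-29, from 18.1, 20.1 and 18.1 TPM to 31.5, 33.6 and 30.2 TPM (0.51 ± 0.05, adjusted p = 1.4e-09). The DLD-1 change was -0.10 ± 0.05 (adjusted p = 0.097). HT-29 and HCT-116 differed in this response by 1.24 ± 0.07 (adjusted p = 3.9e-20). With UCK2 falling and UCK1 rising in HT-29, the UCK2 to UCK1 ratio of TPM went from 3.57 ± 0.205 to 1.37 ± 0.0837 there. In HCT-116 it was 2.99 ± 0.322 and 3.46 ± 0.44, with overlapping ranges. UCKL1 (chr20:63939829-63956416, minus strand) rose in DLD-1 (0.23 ± 0.05) and fell in HCT-116 (-0.17 ± 0.04) and HT-29 (-0.41 ± 0.04), but the HCT-116 change missed the threshold when any replicate was left out and the DLD-1 change without replicate 1 or 3. An antisense RNA, UCKL1-AS1, overlaps UCKL1 by 3033 bases, and the strand setting of the quantification is not given in the sources used here.

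DPYD moved in opposite directions in the lines where it could be tested. In HCT-116 it fell from 1.14, 0.977 and 1.17 TPM to 0.564, 0.613 and 0.828 TPM (-0.68 ± 0.15, adjusted p = 0.00077, or -0.45 and not past the threshold without replicate 1), and in HT-29 it rose from 1.57, 1.46 and 1.48 TPM to 3.32, 3.23 and 2.84 TPM (0.84 ± 0.14, adjusted p = 1.6e-05). The groups did not overlap in either line, and the responses differed by 1.58 ± 0.26 (adjusted p = 1.1e-06). The ratio of UMPS, which activates 5-FU, to DPYD, which degrades it, went from 45.1 ± 4.55 to 66.8 ± 11.8 in HCT-116 on the TPM scale. In HT-29 the same ratio went from 45.3 ± 3.74 down to 22.6 ± 3.24. Most UMPS TPM is held by transcripts not annotated as protein-coding, and on protein-coding transcripts alone the ratio was 3.32 ± 0.619 and 3.57 ± 0.588 in HT-29 and 3.92 ± 2.43 and 6.09 ± 0.0627 in HCT-116, with overlapping ranges in both lines. UMPS itself changed by -0.01 ± 0.05 (adjusted p = 0.93) in HCT-116 and by -0.13 ± 0.04 (adjusted p = 0.014) in HT-29.

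DPYD spans chr1:97077743-97995000 on the minus strand and overlaps DPYD-AS1 and DPYD-AS2 on the opposite strand. The 250 bases before the second of its RefSeq starts (GRCh38.p14, chr1:97921060-97921309, minus strand) are shown because DPYD moved in opposite directions and was almost absent from DLD-1. Capitals mark Sp1-type sites 30 and 13 bases before the start, read on the opposite strand.
DPYD: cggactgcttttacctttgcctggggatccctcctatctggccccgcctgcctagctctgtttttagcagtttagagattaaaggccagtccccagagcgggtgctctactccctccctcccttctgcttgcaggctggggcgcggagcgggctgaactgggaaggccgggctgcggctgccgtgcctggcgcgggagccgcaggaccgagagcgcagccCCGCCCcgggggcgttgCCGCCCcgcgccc

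UMPS, at chr3:124730433-124749273 on the plus strand, did not pass in any sensitive line. Its levels were 54.2, 56.3 and 64.3 TPM under uracil and 53.8, 54 and 51.4 TPM under 5-FU in sensitive DLD-1, and 65.9, 72.0 and 66.3 against 66.9, 69.1 and 74.7 TPM in sensitive HT-29. In HCT-116 it was 45.6, 47.9 and 54.2 TPM under uracil and 44.2, 41.4 and 45.3 TPM under 5-FU. The DLD-1 libraries were apart by a small margin, the HT-29 libraries overlapped, and the HCT-116 libraries were apart on TPM with a change of -0.01 ± 0.05 on the counts.

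PPAT, at chr4:56393362-56435615 on the minus strand, changed little, by -0.17 ± 0.04, 0.09 ± 0.05 and -0.22 ± 0.05. The DLD-1 and HT-29 changes passed on the counts, but on TPM their direction turned, at 0.01 and 0.02 on the log2 scale. Scaling mattered most in HT-29, where the median log2 change of all genes between uracil and 5-FU was 0.03 with the normalization used, 0.19 on library size alone and 0.20 on TPM. Fold changes are therefore relative to the bulk of genes, and TPM values given side by side for HT-29 carry that shift.

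**Figure D2:**
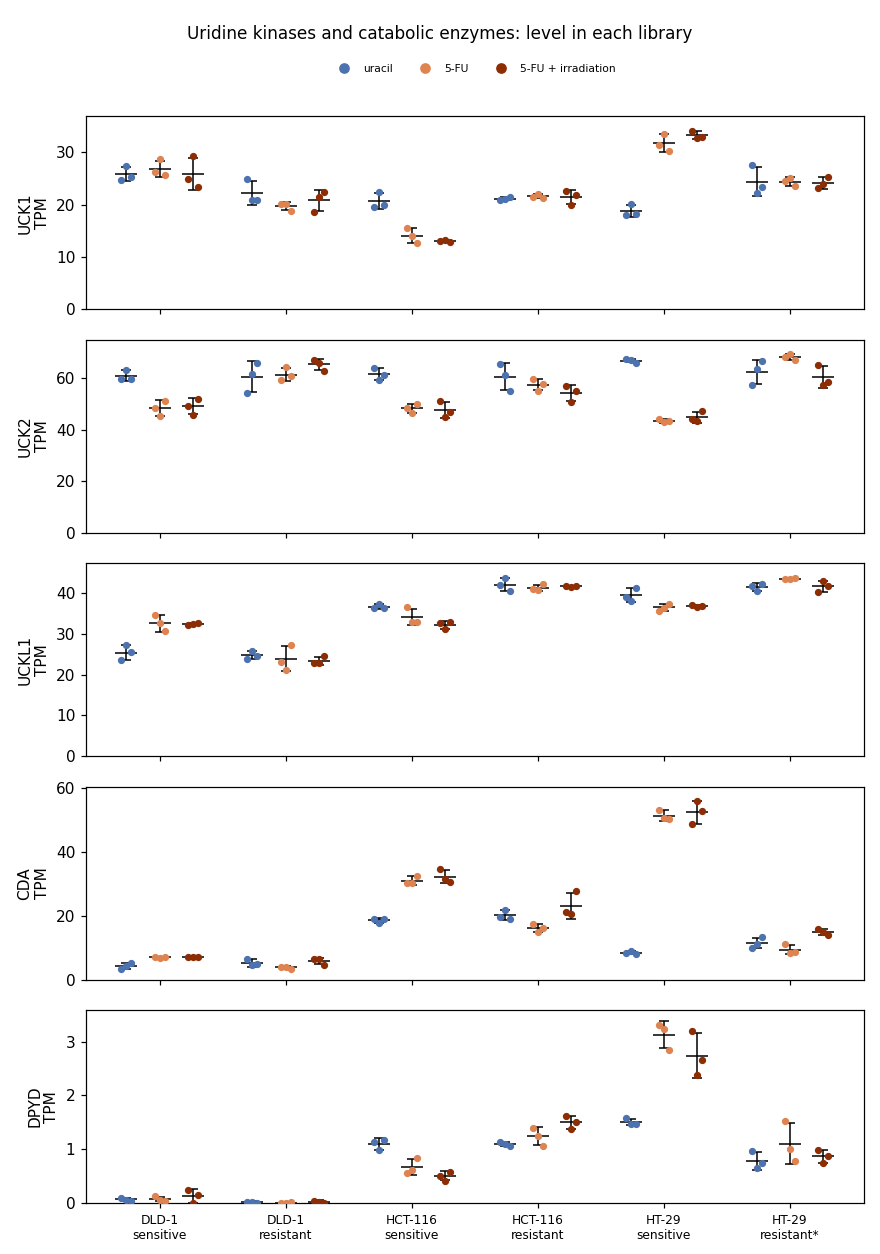
Level in each library (TPM, linear axes from 0) of UCK1, UCK2, UCKL1, CDA and DPYD, by cell line, sensitivity and treatment. Points are the 3 libraries of a condition, bars the mean ± SD, and the asterisk marks libraries labelled resistant HT-29. CDA reaches about 51 TPM in sensitive HT-29 under 5-FU, and DPYD stays near 0 in every DLD-1 condition.

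Irradiation added little to 5-FU in sensitive cells. Of 29 member differences between irradiated and non-irradiated 5-FU cultures, 1 passed and 0 were called. All genes together gave 0.0642%, 0.927% and 0.00842% passed and 0%, 0% and 0.00842% called, and 2447, 1943 and 786 genes had an unadjusted p below 0.05. The gene that passed was TK1 in HCT-116, which went from 88.4, 88.3 and 93.3 TPM to 68.1, 62.7 and 70.2 TPM (-0.41 ± 0.05, adjusted p = 3.4e-05). In the same comparison 8 of 11 S-phase genes (median -0.34) and 8 of 8 G2/M genes (median -0.61) passed lower. The 5-FU levels of CDA were held after irradiation, at 7.04 ± 0.0847, 32.3 ± 2.1 and 52.4 ± 3.67 TPM, with changes of at most 0.03 in size on the log2 scale.

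In resistant cells, 5-FU did not move any of the genes past the threshold with the filter and scaling used. Of 29 differences, 0 passed and 0 were called by edgeR's test, and DESeq2 also called 0. Without the filter on low counts 1 passed, lower, and 0 were called. The share of all genes that passed was 0.385% for DLD-1, 0% for HCT-116 and 0.0421% for libraries labelled resistant HT-29, with 0.0138%, 0% and 0.00421% called. At an unadjusted p below 0.05 there were 4041, 1878 and 1280 genes, respectively. The largest changes among members were in CDA, at -0.43 ± 0.18, -0.35 ± 0.10 and -0.34 ± 0.12 (adjusted p = 0.19, 0.41 and 0.73). CDA values under uracil and 5-FU were 6.53, 4.40 and 4.72 against 4.06, 3.88 and 3.45 TPM in resistant DLD-1, and 19.6, 21.9 and 19.1 against 17.4, 15 and 16.2 TPM in resistant HCT-116. The groups did not overlap in either line, although the adjusted p missed the threshold. Resistant TK1 levels in HCT-116 were 274, 264 and 281 TPM under uracil and 296, 278 and 285 TPM under 5-FU, which overlapped.

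The test of the difference itself compared the 5-FU response of resistant with that of sensitive cells. Of 29 differences, 18 passed (8 higher and 10 lower, or 5 and 12 on library size alone) and 4 were called, where 22.8%, 29.7% and 35.4% of all genes passed and 3.12%, 6.11% and 9.28% were called. Without the libraries labelled resistant HT-29, 9 of 19 passed. For CDA the resistant minus sensitive difference was -1.07 ± 0.24 in DLD-1, -1.08 ± 0.14 for HCT-116 and -2.71 ± 0.15 with the libraries labelled resistant HT-29 (adjusted p = 0.0014, 2.2e-06 and 1.6e-13). The DLD-1 value rests on single libraries: without replicate 1 of every group it was -0.81 (adjusted p = 0.033) and without replicate 2 it was -1.21 (adjusted p = 0.016), neither of which passed. In HCT-116 it was -0.94 without replicate 2, which passed but was no longer 2-fold. The number called over all members was 2 without replicate 2 and 3 without the libraries labelled resistant HT-29.

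For TK1 in HCT-116 the difference was 1.89 ± 0.07 (adjusted p = 9.3e-15), the largest positive value among the members. UCK1 (0.70 ± 0.08) in HCT-116 also had a higher response in resistant cells, and TYMP a lower one (-0.82 ± 0.07). DPYD in HCT-116 passed at 0.76 ± 0.21 but missed the threshold when any of the 3 replicates was left out (0.43 to 0.95) and under other settings. In DLD-1 the differences that passed, other than CDA, were UPP1 at -0.85 ± 0.08, UCK2 at 0.47 ± 0.07 and PPAT at 0.28 ± 0.06. Each of these has the opposite sign to the response of the sensitive cells, which enters the difference directly. The PPAT difference in DLD-1 missed the threshold under 3 alternative settings and was 0.04 on the TPM ratio.

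**Figure D3:**
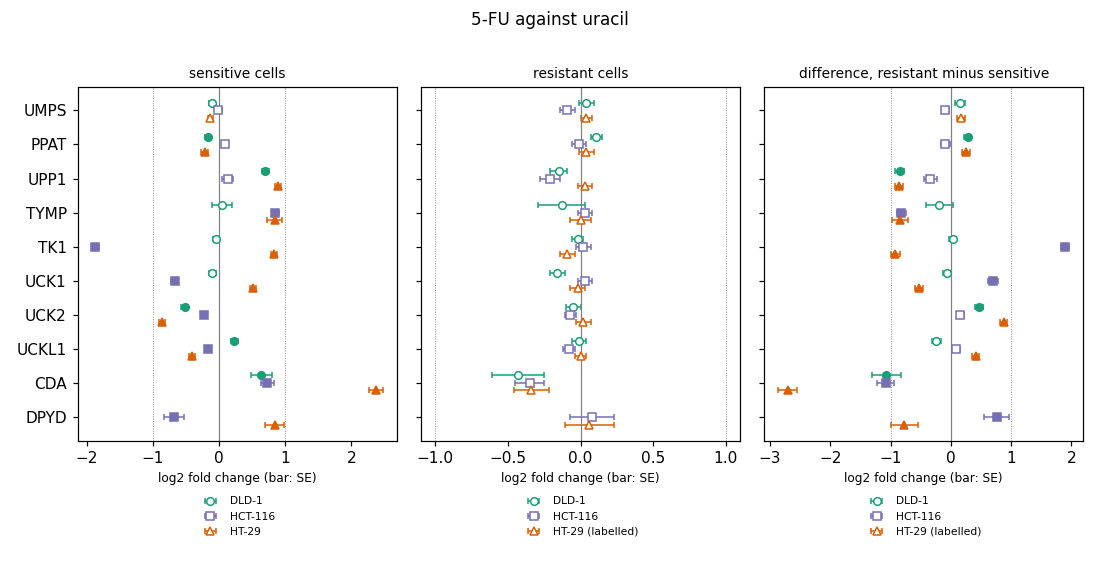
Log2 fold change of each gene for 5-FU against uracil in sensitive cells, in resistant cells, and the difference between these responses (separate linear axes). Symbols are cell lines, bars the SE, filled symbols an adjusted p of at most 0.01, and dotted lines mark 2-fold. No symbol is filled for resistant cells, and DPYD has no DLD-1 value because its counts fell below the filter.

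In resistant cells, CDA, TYMP and PPAT were higher in some lines after 5-FU with medium change and irradiation than after 5-FU alone. Of 29 differences 7 passed, 4 higher and 3 lower, and 0 were called. Without the libraries labelled resistant HT-29, 3 of 19 passed, and each of these missed the threshold when a replicate was left out: CDA and TYMP in HCT-116 for any of the 3, and PPAT in DLD-1 without replicate 2 or 3. TK1 and UCK2 in the labelled libraries missed it without replicate 2. Over all genes 3.85%, 2.58% and 14.4% passed and 0.142%, 0.0261% and 0.434% were called, and at an unadjusted p below 0.05 there were 4714, 4305 and 7721 genes. CDA rose in resistant HCT-116 (0.52 ± 0.10, adjusted p = 0.0029), from 17.4, 15 and 16.2 TPM to 21.2, 20.5 and 27.9 TPM. It also rose in the libraries labelled resistant HT-29 (0.64 ± 0.11, adjusted p = 0.0001), from 11.1, 8.27 and 8.73 TPM to 16, 15 and 13.8 TPM, and neither pair of groups overlapped. In resistant DLD-1 the CDA change was 0.60 ± 0.17 (adjusted p = 0.035). TYMP rose in resistant HCT-116 (0.25 ± 0.05) and PPAT in resistant DLD-1 (0.20 ± 0.04). The 3 falls were all in the libraries labelled resistant HT-29: UPP1 at -0.44 ± 0.05, TK1 at -0.28 ± 0.05 and UCK2 at -0.22 ± 0.05.

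Without 5-FU, resistant and sensitive cells of DLD-1 and HCT-116 differed mainly in UPP1, and in opposite directions. In DLD-1 its level was 24.3, 25.2 and 25.1 TPM in sensitive and 15, 13.8 and 14 TPM in resistant cells under uracil (-0.78 ± 0.06, adjusted p = 4.8e-10). In HCT-116 it was 26.5, 29.5 and 26.3 TPM in sensitive and 45.1, 43.1 and 36.6 TPM in resistant cells (0.58 ± 0.08, adjusted p = 9.2e-07). The sensitive and resistant libraries did not overlap in either line. UPP1 was the only gene of the group that passed in DLD-1. HCT-116 also had higher TYMP (0.28 ± 0.05) and lower TK1 (-0.26 ± 0.05) in resistant cells. UMPS differed by 0.05 ± 0.05 for DLD-1 and 0.13 ± 0.05 for HCT-116 (adjusted p = 0.49 and 0.023), and DPYD in HCT-116 by 0.04 ± 0.15 (adjusted p = 0.83).

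In all, 11 of 29 differences between resistant and sensitive cells under uracil passed, 5 higher and 6 lower (10 and 4 on library size alone), and 2 were called. Among all genes 24.6%, 41.1% and 68.4% passed, and 5.7%, 11% and 39.4% were called. Both calls, TYMP at 3.41 ± 0.09 and UPP1 at 1.57 ± 0.05, came from the libraries labelled resistant HT-29, and without those libraries 4 of 19 passed and 0 were called. TYMP in those libraries was 18.5, 20.9 and 21.4 TPM, overlapping sensitive HCT-116 and far above sensitive HT-29.

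Set against HCT-116 in place of HT-29, the libraries labelled resistant HT-29 had 0 called differences of 20 by edgeR's test and 8 that passed, 2 higher and 6 lower (5 and 5 on library size alone), where 30.2% of all genes passed and 6.87% were called against sensitive HCT-116, and 20.2% and 3.36% against resistant HCT-116. TYMP differed from sensitive HCT-116 by -0.15 ± 0.07 (adjusted p = 0.075). UPP1 was higher than in sensitive HCT-116 by 0.56 ± 0.06 and differed from resistant HCT-116 by -0.03 ± 0.06 (adjusted p = 3e-10 and 0.78). CDA and DPYD were lower than in either HCT-116 population, CDA by -0.81 ± 0.12 and -0.90 ± 0.12 and DPYD by -0.68 ± 0.19 and -0.73 ± 0.19, although neither DPYD difference passed when any of the 3 replicates was left out. Without replicate 3 of every group the CDA difference from resistant HCT-116 was -1.04 and was called.

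**Figure D4:**
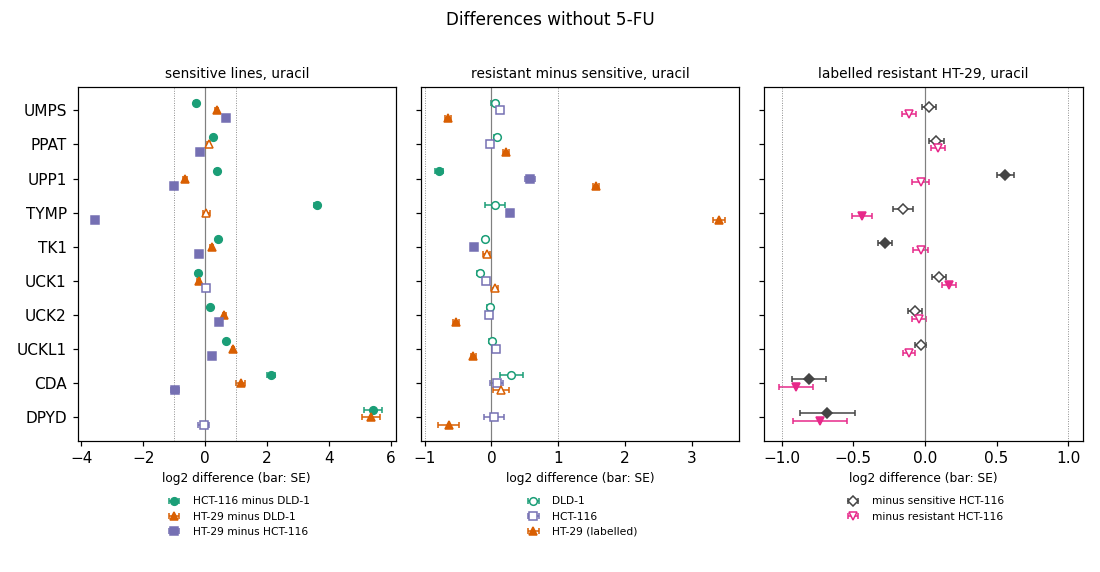
Log2 difference of each gene under uracil between sensitive lines, between resistant and sensitive cells, and between the libraries labelled resistant HT-29 and HCT-116 (separate linear axes). Bars are the SE, filled symbols an adjusted p of at most 0.01, and dotted lines mark 2-fold. TYMP lies at 3.41 for labelled resistant minus sensitive HT-29 but at -0.15 for the same libraries minus sensitive HCT-116.

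Under 5-FU, resistant and sensitive cells were compared in the same way, in comparisons that share the sensitive libraries with those above. Of 29 differences 24 passed and 5 were called, where 42.2%, 46.7% and 71.5% of all genes passed and 9.11%, 13.3% and 42.7% were called. Without the libraries labelled resistant HT-29, 14 of 19 passed. UPP1 in DLD-1 was 3.1-fold lower in resistant cells (-1.63 ± 0.06), at 13.7, 12.1 and 12.6 TPM against 43.8, 47.4 and 42.8 TPM. TK1 in HCT-116 was 3.1-fold higher (1.63 ± 0.05), at 296, 278 and 285 TPM against 88.4, 88.3 and 93.3 TPM. The other calls, TYMP (2.57 ± 0.08), DPYD (-1.41 ± 0.15) and CDA (-2.56 ± 0.10), used the libraries labelled resistant HT-29, and 2 were called without them. CDA in resistant HCT-116 under 5-FU was lower by -0.99 ± 0.10 and TK1 in the libraries labelled resistant HT-29 by -0.99 ± 0.05, both just under 2-fold. Of the further differences that passed, DPYD (0.80 ± 0.15) and UCK1 (0.62 ± 0.05) were higher and TYMP (-0.54 ± 0.05) lower in resistant HCT-116. In resistant DLD-1, UCK2 (0.45 ± 0.05), PPAT (0.36 ± 0.04) and UMPS (0.21 ± 0.05) were higher and CDA (-0.77 ± 0.17) lower, but the UMPS difference missed the threshold under 3 alternative settings. DPYD in HCT-116 under 5-FU was 1.40, 1.25 and 1.06 TPM in resistant against 0.564, 0.613 and 0.828 TPM in sensitive cells, with no overlap.

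The neighbouring pyrimidine genes were counted in the same way. This list of 24 genes held nucleotidases, which remove the phosphate from nucleotides, enzymes of de novo pyrimidine synthesis, PRPP synthetases and other kinases, and 21 of them had enough counts to be tested in each line. In sensitive cells under 5-FU, 4, 6 and 6 of them rose and 10, 9 and 8 fell, with median log2 changes of -0.20, -0.05 and 0.08 beside 0.01, 0.03 and 0.03 for all genes. The share of all genes that passed was 34.7%, 42% and 47%. NT5M, a mitochondrial nucleotidase, fell by 1.11 in DLD-1 cells and by 1.18 in HCT-116 cells on the log2 scale (SE 0.14 and 0.11). DHODH, which makes orotate, the natural substrate of UMPS, fell by 1.22 in HT-29 (SE 0.05), from 14.5 ± 1.25 to 6.76 ± 0.330 TPM. In resistant cells 0 of the 21 passed in any line under 5-FU, where 0.385%, 0% and 0.0421% of all genes did.

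The nucleotidase NT5E was higher in resistant than in sensitive HCT-116 cells under uracil by 1.64 ± 0.09 on the log2 scale, and UPRT, a relative of microbial uracil phosphoribosyltransferases, differed by -1.14 ± 0.09. Of the 21 genes, 7 were higher and 4 lower in that comparison, and 1 was higher and 2 lower in DLD-1. Among all genes 41.1% passed in HCT-116 and 24.6% in DLD-1. Of the 7 purine genes listed as partners of PPAT, 1, 2 and 0 rose and 5, 2 and 6 fell with 5-FU in sensitive cells, with medians of -0.25, 0.04 and -0.52. The share of all genes that passed there was 34.7%, 42% and 47%. PAICS, whose gene starts 125 bases from PPAT on the opposite strand, changed by -0.21 ± 0.06, -0.28 ± 0.05 and -0.44 ± 0.05.

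An interferon list moved with the same comparison in HT-29. Of 11 interferon genes, 10 passed higher and 1 lower in sensitive HT-29 under 5-FU, with a median log2 change of 1.57, while 4 rose and 3 fell in DLD-1 and 1 rose and 2 fell in HCT-116 among 10 tested. Among all genes 47% passed in HT-29, 34.7% in DLD-1 and 42% in HCT-116. The part of the interferon list in the HT-29 values of CDA, TYMP and UPP1 was not tested. Markers of other cell types also moved there. Summed over each list, immune markers were 3.45 to 6.40 TPM under uracil and 17.1 to 21.3 TPM under 5-FU, with 1 of 4 at 1 TPM or more under both. Fibroblast markers were 0.904 to 1.68 and 3.47 to 4.61 TPM, with 0 and 2 of 5 at that level, and endothelial markers 0.162 to 0.708 and 3.81 to 4.10 TPM, with 0 and 1 of 3. The part of these lists in the results was not tested.

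The deposited transcript tables show which transcripts carried these levels. Kallisto divides reads among overlapping transcripts by estimate, so the shares are less certain than gene totals. A single protein-coding transcript held 90.2% of the TK1 TPM on average over the 54 libraries, and the same was true of PPAT at 88.6% and CDA at 84.5%. The leading transcripts of UCKL1, UCK1 and DPYD were also protein-coding, with 57%, 51.6% and 48.2%. For UPP1 and UMPS the leading transcript was annotated as a target of nonsense-mediated decay, with 40.5% and 33.1%. For UCK2 it had no defined coding sequence and held 36.9%, just above a coding transcript with 35.7%.

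Protein-coding transcripts made up 6.35% to 15.1% of UMPS and 14.7% to 30.6% of UPP1 by condition. In sensitive HCT-116 the coding TPM of UPP1 went from 6.26 ± 0.439 under uracil to 4.65 ± 0.379 under 5-FU, while the gene total was 27.4 ± 1.80 and 29.7 ± 1.69 TPM. In DLD-1 and HT-29 the coding TPM of UPP1 went up with the total, from 7.19 ± 0.547 to 10.8 ± 0.627 and from 3.95 ± 0.108 to 8.07 ± 0.250. Coding TPM of UMPS in sensitive HT-29 was 4.31 ± 0.223 under uracil and 10.6 ± 1.3 under 5-FU, with totals of 68.1 and 70.2 TPM. These are descriptions of estimated shares and were not tested.

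Across the 18 condition means, members were compared with each other and with 21996 genes by Pearson's r. These values describe conditions that share lines, treatments and base levels, so the points are not independent. Over 18 conditions TK1 and UCK1 had the highest r among the members (0.880), followed by DPYD and CDA (0.806), and over the 15 conditions without the libraries labelled resistant HT-29 the values were 0.884 and 0.829. The lowest r was that of UMPS and TYMP over 18 conditions (-0.762), whereas over 15 it was that of UMPS and PPAT (-0.786), just below UMPS and TYMP (-0.783). The gene nearest to TK1 was SKA2 in both sets (r = 0.974 and 0.984), followed by DSN1 and NUSAP1 over 18 conditions and by RFC2 and DSN1 over 15. The nearest gene was also the same in both sets for UPP1 (RNF167, 0.978 and 0.984), TYMP (AC120057.4, 0.990 and 0.991), DPYD (ITGB1, 0.986 and 0.989) and UCK1 (MDC1, 0.969 and 0.978). It changed for UMPS from KDELR2 (0.971) to GOLIM4 (0.973), for UCKL1 from DNLZ (0.961) to USP24 (0.966) and for PPAT from ADORA1 (0.924) to AL117378.1 (0.917). It also changed for UCK2 from EIF2A (0.936) to CNBP (0.955) and for CDA from FAM25A (0.971) to TSPYL2 (0.986).

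The 250 bases before every listed start of the 10 genes in the RefSeq promoter table (GRCh38.p14) were searched on both strands for 8 short motifs, and the shares in all 35116 promoters of the table are given beside them. Because some genes have several starts, the search covered 16 windows, and the counts are per window. Sp1 sites (GGGCGG) were found in 11 of 16 windows and in 42.6% of all promoters. Windows of the same gene can overlap and share a site, and by gene Sp1 sites were in 7 of 10. The windows held 60.4% to 82% G and C, beside a median of 58% for all promoters. CCAAT boxes (CCAAT) were in 4 windows, of TYMP, TK1 and UCK2, and in 32% of all. E2F-type letters (TTTCGCG, plus TTTGGCG, plus TTCCCGC, plus TTGGCGC) were in 2 windows, of UPP1 and TK1, and in 9.62% of all, and NRF2-type letters (TGACNNNGC) in 2, of TK1 and PPAT, and in 10.9% of all. The E-box (CACGTG) was in 2 windows, of UCKL1 and PPAT, and in 6.34% of all. The interferon-type motifs GAS (TTCNNNGAA) and ISRE (GAAANNGAA) and the ATF4 motif (TGATGNAA) were in 0 windows, against 6.57%, 6.88% and 3.14% of all promoters. A match describes letters in the window and does not show binding.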

How the data were processed

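Poly(A) RNA was sequenced as directional paired-end libraries. The authors turned the delivered BAM files back into reads, checked and trimmed them (FastQC 0.11.8, Trimmomatic 0.36) and quantified them with kallisto 0.44.0 on Ensembl transcripts of GRCh38.p13. They deposited estimated counts, which are not normalized, and TPM per transcript and summed per gene. The strand setting is not given in the sources used here.

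Here the deposited estimated counts were rounded, filtered by expression, TMM-scaled and tested with edgeR 4.0.16 in R 4.3.3 (quasi-likelihood, 1 fit per line, and 1 of all 54 libraries for comparisons between lines), with Benjamini-Hochberg adjustment over all genes tested (21814 for DLD-1, 22975 for HCT-116, 23756 for HT-29, 26043 jointly). DESeq2 1.42.0 was an alternative. The test was checked on simulated counts. Deposited TPM values give levels. Some member differences that passed are only counted and not named, so a member left unnamed in a comparison may still have passed. Listed neighbouring genes are named where called, and PAICS for its position. Members and lists were chosen with earlier results of these data known. Of 54 replicate pairs the closest still differed beyond sampling noise (chi-square over degrees of freedom 2.31), so none was merged.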

Additional observations from a re-analysis of the deposited data

Results flagged for a closer look

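In 10 cases the 5-FU response of a gene differed at least 2-fold between groups, by edgeR's quasi-likelihood test of the difference itself (log2 scale, resistant minus sensitive or as named). Between resistant and sensitive cells these were TK1 in HCT-116 (1.89) and CDA in DLD-1 (-1.07), in HT-29 (-2.71) and also in HCT-116 (-1.08), the HT-29 value with libraries that carry HCT-116 markers. Between sensitive lines they were TK1 for HCT-116 minus DLD-1 (-1.81) and HT-29 minus HCT-116 (2.76), UCK1 (1.24) and DPYD (1.58) for HT-29 minus HCT-116, and CDA for HT-29 minus DLD-1 (1.79) and HT-29 minus HCT-116 (1.70). In 3 of these, TK1, UCK1 and DPYD for HT-29 minus HCT-116, the response passed with opposite signs in the lines compared. The DLD-1 value of CDA did not pass without replicate 1 or without replicate 2.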

How the results depend on the processing

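In every comparison the number of called members stayed within 1.5 times of that reported under DESeq2, DESeq2 size factors, no filter on low counts, only the compared groups and thinning of the deepest library. On library size alone it was 4 in place of 2 for 5-FU in sensitive cells, adding UPP1 (1.05) and TYMP (1.00) in HT-29. That scaling also turned the split of differences that passed between resistant and sensitive cells under uracil from 5 higher and 6 lower to 10 and 4, and for the difference of response from 8 and 10 to 5 and 12. At a 1.5-fold threshold the calls were 13 for 5-FU in sensitive cells, 1 for irradiation in resistant cells, 5 and 11 for resistant against sensitive cells under uracil and 5-FU, 13 for the difference of response, 13 between lines, 4 for the libraries labelled resistant HT-29 against HCT-116, and 11 for the difference between lines. The share of all genes called at 1.5-fold was not computed, so these counts cannot be weighed against it. Leaving out 1 replicate gave 2 to 4 calls for the difference of response between resistant and sensitive cells, 5 to 7 for resistant against sensitive under 5-FU, 0 to 1 for the libraries labelled resistant HT-29 against HCT-116 and 6 to 7 for the difference between lines. Without the libraries labelled resistant HT-29, a setting chosen after seeing the data, resistant against sensitive cells gave 0 calls under uracil and 2 under 5-FU. On the TPM ratio, also added later, 4 of the 136 differences that passed reversed: UCK2 in the difference of the 5-FU response for HCT-116 minus DLD-1 (-0.01), UCKL1 in labelled resistant against sensitive HT-29 (0.07), and PPAT under 5-FU in DLD-1 (0.01) and HT-29 (0.02). Of the 136, 40 missed the threshold under at least 1 alternative.

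Replicate numbers did not pair the libraries: over 135 same-number pairs the correlation of deviations ran from -0.0723 to 0.0810. With the replicate number as a block the calls were 2 for 5-FU and 0 for irradiation in sensitive cells, 0 and 0 in resistant cells, 2 and 5 for resistant against sensitive cells under uracil and 5-FU, 4 for the difference of response, 7 between lines, 0 for the libraries labelled resistant HT-29 and 6 for the difference between lines. Depth limits DPYD, which cannot be followed in DLD-1.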
